A study of Vitis vinifera with 27 samples.

Results

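Berries of vines whose basal leaves had been moved aside at véraison (LM-V) were compared with berries of untreated control vines (C) at E-L 36, the first of the ripening stages sequenced. The comparison rests on 6 of the 27 RNA-seq libraries of the series: 3 LM-V and 3 C libraries, taken by their column labels in the table of FPKM values (fragments scaled to transcript length and to the mapped reads of the library). The plants were field-grown Vitis vinifera cv. Cabernet Sauvignon in the 2012 season, and RNA came from deseeded berries, so that skin and flesh were measured together. In LM-V vines the basal leaves, from the first up to the sixth of each shoot bearing clusters, were held aside with nylon ties, which exposed the clusters and left the leaves on the vine. In leaf removal vines (LR-V) the same leaves were cut off at véraison, and C vines kept their canopy. Each replicate was a separate set of 15 vines, with 50 berries pooled for RNA extraction, so that the spread between libraries is that between sets of vines. The same 3 groups were also sampled at E-L 37 and at E-L 38, which was harvest.

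Sunlight on a grape cluster is known to raise flavonol synthesis in the berry skin. Phenylalanine ammonia-lyase (PAL) opens the phenylpropanoid pathway, chalcone synthase starts the flavonoid branch, and flavonol synthase (FLS) makes flavonols from dihydroflavonols under the control of the transcription factor MYBF1, while MYBA1 switches on the glucosyltransferase that completes anthocyanins. Exposed berries also become warmer, and heat shock proteins, early light-induced proteins and antioxidant enzymes are the usual markers of heat and excess light in plants. Moving the leaves instead of cutting them exposes the cluster without taking away the leaves that feed it.

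The 6 libraries were alike in make-up, and between 16582 and 16881 genes reached an FPKM of 1. Relative depth, read from the step between low FPKM values, ran from 0.988 to 1.01. This reading kept only genes close to their lowest value above 0 in both libraries, which holds it near 1. It therefore cannot show whether depth was equal. Pearson correlations of log2(FPKM + 1) between libraries were 0.967 to 0.975 within LM-V, 0.97 to 0.975 within C and 0.966 to 0.978 between the 2 groups, so that LM-V and C libraries were as close to each other as to their own group. Ripening markers (49 tested genes, such as thaumatin-like proteins and polygalacturonases) summed to FPKM 20000 to 21500 in LM-V and 19300 to 22900 in C. Seed storage transcripts, which deseeded berries should lack, were at 0 in 4 of the 6 libraries: the mean log2(FPKM + 1) of a 2S albumin-like and a vicilin-like gene was 0, 0.143 and 0 in LM-V and 0, 0 and 1.73 in C, and among the LR-V libraries it reached 3.84 in replicate A. A wider list of 10 seed genes, with oleosins and late embryogenesis proteins, summed to FPKM 139.4 to 159.0 in LM-V, 283.8 to 671.2 in LR-V and 92.2 to 130.2 in C, so that LM-V lay above C without overlap, and 1 of the 10 genes had an unadjusted p under 0.05. Only the 2-gene level was used as a covariate. Among the 6 libraries that level was highest in C replicate C, whereas the sum of the wider list was higher in LM-V. The part of the wider list in the difference between LM-V and C was therefore not tested.

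Few genes were called between LM-V and C at this stage. With limma on log2(FPKM + 1) and Benjamini-Hochberg adjustment over 19761 tested genes, 14 genes had an adjusted p under 0.05: 12 were higher in LM-V (0.0607% of the genes tested) and 2 were lower (0.0101%). An unadjusted p under 0.05 was reached by 652 genes that were higher in LM-V (3.3%) and 675 that were lower (3.42%), and all 3 LM-V libraries lay above all 3 C libraries in 1101 genes (5.57%) and below them in 1174 genes (5.94%). The median log2 difference over all tested genes was -0.01. The 14 calls rest on an error estimate shared by all 27 libraries. When limma was fitted to the 6 compared libraries alone, 0 genes had an adjusted p under 0.05, with 721 higher and 580 lower at an unadjusted p under 0.05, and a fit of the 9 libraries of E-L 36 also called 0, with 674 higher and 564 lower, whereas the rebuilt rule of a fold change of 2 and a probability of 0.8 picked 81 genes (48 higher, 33 lower). The count was 4 without C replicate B, 3 without C replicate C, 8 without LM-V replicate A, 6 without LM-V replicate B and 29 without LM-V replicate C.

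**Figure D1:**
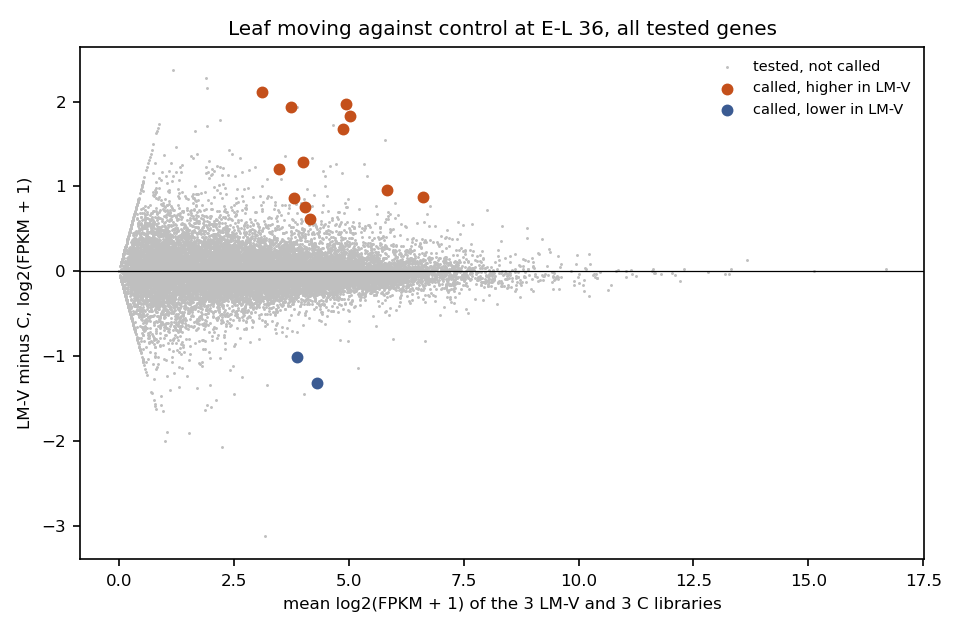
Each point is 1 of the 19761 tested genes, with the mean log2(FPKM + 1) of the 6 libraries on the x axis and the LM-V minus C difference on the y axis. The 12 genes called higher in LM-V lie above 0 and the 2 called lower lie below 0, and most genes sit close to 0 (median -0.01). Some genes that were not called lie further from 0 than called ones, such as VIT_219s0014g03750 (2.369) and VIT_212s0034g01730 (-2.065).

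The clearest group among the genes that were higher in LM-V was a run of neighbouring identifiers whose closest protein is a 2-nonaprenyl-3-methyl-6-methoxy-1,4-benzoquinol hydroxylase of cacao, a name taken from an enzyme of ubiquinone synthesis. These genes were brought together after their values were seen, so that no test is given for the group. Of 13 genes with this match, 12 were tested, and in all 12 the 3 LM-V libraries lay above the 3 C libraries, against 5.57% of all genes. Because the genes were chosen with these values known, this share is a description. Their summed FPKM was 467, 790 and 392 in LM-V berries, against 216, 153 and 203 in C berries. Log2 differences ran from 0.81 to 1.97 with a median of 1.30 (1.32 after median-of-ratios scaling), and 2 of the 12 passed the adjusted test. The rebuilt rule of a fold change of 2 picked 11 of them, against 48 picked as higher over all 19761 genes. VIT_212s0057g00170 had FPKM 54.4, 86.9 and 44.8 in LM-V, against 17.1, 9.83 and 17.9 in C, and rose by a log2 fold change of 1.97 ± 0.27 (SE, n = 3 each, limma adjusted p = 0.00212). The second, VIT_212s0057g00100, had FPKM 53.97, 86.1 and 48.2 in LM-V and 22.6, 13.7 and 14.2 in C (log2 1.83 ± 0.34, adjusted p = 0.0419). LM-V replicate B was the highest of the 3 LM-V libraries in both genes. VIT_212s0057g00120 and VIT_212s0057g00140 showed log2 differences of 1.93 and 1.73 without passing (adjusted p = 0.15 and 0.347). Because the sources used here do not state how reads with several alignments were counted, levels of such similar genes may not be independent of each other.

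Among the other genes called higher were a gene annotated with regulation of transcription, a MADS-box gene and a co-chaperone gene. VIT_217s0000g03720, annotated only with regulation of transcription, was the most abundant of the 14, at FPKM 129, 157 and 115 in LM-V berries, against 76.6, 66.2 and 73.96 in C berries. It had the smallest p of all genes (log2 0.87 ± 0.11, adjusted p = 0.00152), and its groups were well apart. The AGL15-like MADS-box gene VIT_213s0158g00100, whose Arabidopsis namesake is known from embryo and flower development, had FPKM 20.8, 25.4 and 16.5 in LM-V and 11.4, 12.04 and 11.8 in C (log2 0.76 ± 0.13, adjusted p = 0.0101). The chloroplastic dnaJ 11 gene VIT_219s0015g01370, a co-chaperone of the Hsp70 system, stood at FPKM 62.9, 106 and 71.04 in LM-V, against 41.6, 40.99 and 36.8 in C (log2 0.95 ± 0.16, adjusted p = 0.014). All 3 genes rose with no overlap of the groups. Of 42 tested DnaJ genes, in a list drawn up after the values were seen and including dnaJ 11, that gene alone was called, and 4 lay above and 4 below C without overlap (9.52% each, against 5.57% and 5.94% of all genes).

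Further genes called higher have weaker or no annotation. VIT_208s0007g04180, which has no functional annotation in the table, had FPKM 55.1, 63.7 and 39.2 in LM-V and 17.7, 14.1 and 14.6 in C, a log2 difference of 1.68 ± 0.23 (adjusted p = 0.00212). VIT_218s0001g14440, with a weak match to DnaJ proteins, showed the largest difference of the 14, at FPKM 17.1, 23.6 and 11.9 in LM-V and 4.34, 2.19 and 3.14 in C (log2 2.12 ± 0.33, adjusted p = 0.00649). VIT_214s0006g02950, annotated with response to gibberellin, had FPKM 24.8, 37.03 and 17.3 in LM-V, against 7.18, 3.56 and 7.70 in C (log2 1.93 ± 0.35, adjusted p = 0.0311). These 3 genes were expressed at several times the C level in LM-V libraries. The uncharacterised gene VIT_211s0016g00690 had FPKM 20.6, 38.7 and 17.4 in LM-V and 11.5, 8.56 and 8.16 in C (log2 1.28 ± 0.20, adjusted p = 0.0064). VIT_214s0108g00090 is annotated as a cysteamine dioxygenase, a thiol-oxidising enzyme whose plant relatives in Arabidopsis take part in oxygen sensing, and its FPKM was 20.2, 17.8 and 11.5 in LM-V and 6.79, 5.58 and 7 in C (log2 1.20 ± 0.23, adjusted p = 0.0452). Its groups did not overlap, although LM-V replicate C was below the other LM-V libraries.

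VIT_213s0019g01180, named in the study as a cytokinin receptor gene (CRE1), had FPKM 21.99, 16.5 and 15.9 in LM-V, against 10.2, 9.33 and 8.78 in C, and rose by a log2 fold change of 0.86 ± 0.14 (adjusted p = 0.00803). The match to the receptor is weak in the deposited annotation, whose GO term for this gene is glucan endo-1,3-beta-glucosidase activity, so that its identity is uncertain. The MLO gene VIT_205s0094g01570, one of a family of membrane proteins of which some members are needed for powdery mildew infection, had FPKM 22.7, 21.98 and 19.1 in LM-V and 13.5, 14.1 and 12.9 in C (log2 0.62 ± 0.11, adjusted p = 0.0311). It showed the smallest difference of the 14 genes, with narrow groups that did not overlap.

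Both genes called lower were reduced to less than the lowest C library in every LM-V library. VIT_210s0116g01650 encodes adenylyl-sulfate reductase, the enzyme that reduces activated sulfate on the way to cysteine and glutathione. Its FPKM was 18.1, 9.80 and 8.80 in LM-V berries, against 24.7, 36.3 and 31.3 in C berries, and it fell by a log2 fold change of -1.31 ± 0.24 (adjusted p = 0.0369). A list of sulfate assimilation genes was drawn up after this gene was seen and includes it. In the list, 5 of 25 tested members (20%) lay below C without overlap, against 5.94% of all genes, and 0 lay above. A difference above 0 was found in 9 members (36%, against 46.1% of all genes), and the median was -0.03. A second adenylyl-sulfate reductase gene, VIT_212s0059g00760, had FPKM 2.89, 2.56 and 2.99 in LM-V and 3.31, 4.30 and 7.01 in C (log2 -0.58, adjusted p = 0.591), and did not pass. The other gene called lower, VIT_216s0098g00600, carries GO terms for chloroplast organization and regulation of defense, and had FPKM 9.61, 10.01 and 8.28 in LM-V and 22.3, 17.6 and 19.6 in C (log2 -1.01 ± 0.16, adjusted p = 0.0064).

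**Figure D2:**
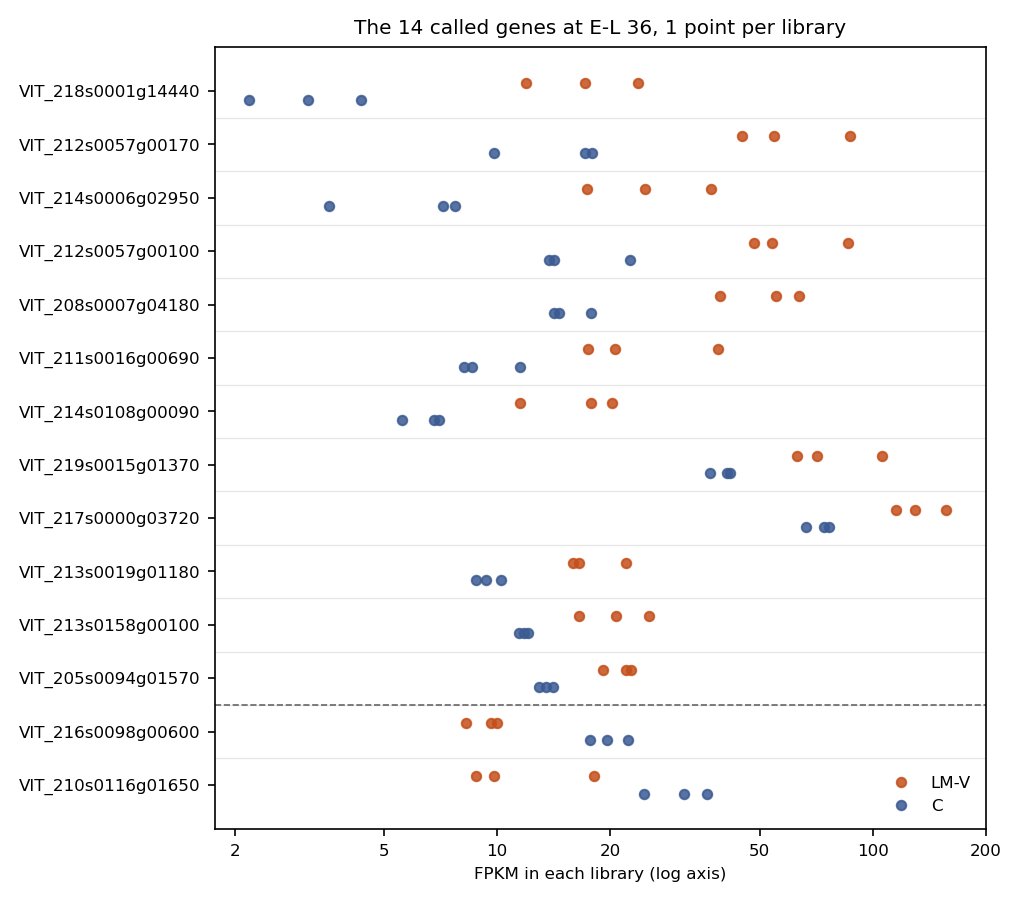
FPKM on a log axis in each of the 3 LM-V (orange, upper row of each gene) and 3 C (blue, lower row) libraries at E-L 36 for the 14 called genes. In the 12 genes above the dashed line all LM-V points lie to the right of the C points, and in the 2 genes below it they lie to the left.

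Outside the threshold, 4 genes shared an adjusted p of 0.0513, and of these the 9-cis-epoxycarotenoid dioxygenase (NCED) gene VIT_219s0093g00550 is the best known, since NCED catalyses the committed step of abscisic acid synthesis. It had FPKM 26.3, 38.8 and 30.8 in LM-V, against 15.8, 12.3 and 12.3 in C, and the groups did not overlap (log2 1.18 ± 0.23). Several genes of low level showed larger differences without passing. VIT_219s0014g03750, unannotated, had FPKM 4.34, 6.78 and 2.32 in LM-V and was listed at 0 in all C libraries. VIT_218s0001g08160 had FPKM 5.09, 9.27 and 4.08 in LM-V and 0.43, 1.75 and 1.30 in C (log2 1.71, adjusted p = 0.0936). At the other end, VIT_212s0034g01730 had FPKM 2.73, 2.27 and 0 in LM-V, against 4.83, 10.1 and 12.8 in C (log2 -2.06, adjusted p = 0.343), and a gene annotated as ubiquitin carboxyl-terminal hydrolase, VIT_219s0014g03910, was listed at 0 in all LM-V libraries with FPKM 1.31, 6.45 and 2.70 in C.

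No gene of the phenylpropanoid and flavonoid enzyme lists, from PAL to UFGT, was called by limma or picked by the rebuilt fold change rule, and an unadjusted p under 0.05 was reached by 1 4-coumarate-CoA ligase, 2 FLS and 1 UFGT gene. The largest difference was in FLS4 (VIT_218s0001g03470), with FPKM 6.04, 4.49 and 3.82 in LM-V berries, against 1.26, 1.78 and 2.01 in C berries, a log2 difference of 1.10 ± 0.28 (adjusted p = 0.217). The groups did not overlap. MYBF1 (VIT_207s0005g01210), the flavonol regulator, was too low to be tested, at FPKM 0.71, 0.63 and 0.54 in LM-V and 0.21, 0.21 and 0.21 in C. These groups did not overlap either, but the values are near the floor and may rest on very few reads, whose counts are not given. Of the 14 tested FLS genes 5 had a difference above 0 (35.7%, against 46.1% of all genes). VIT_208s0105g00380, the most abundant gene annotated as FLS among those named, had FPKM 116, 91.9 and 109.5 in LM-V and 132, 150.3 and 174 in C (log2 -0.52, adjusted p = 0.453). FLS3 (VIT_218s0001g03430) differed by -0.35 on the log2 scale with overlapping groups. VIT_213s0067g01020, another gene annotated as FLS that the study names, had FPKM 1.37, 0.43 and 0 in LM-V and 0.70, 0.14 and 0.42 in C, with overlapping groups (log2 0.10, adjusted p = 0.999). VIT_208s0007g00750, too low to be tested, had FPKM 0.08, 0.34 and 0 in LM-V and 0, 0.09 and 0.17 in C, also with overlap. Over the 14 tested FLS genes, 1 lay above (7.14%) and 2 lay below C without overlap (14.3%), against 5.57% and 5.94% of all genes. The median log2 difference was -0.06. FLS1 and FLS2 were too low to be tested.

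In the anthocyanin branch, MYBA1 (VIT_202s0033g00410) had FPKM 18.2, 17.8 and 13.1 in LM-V and 10.6, 8.53 and 8.01 in C, with no overlap (log2 0.78 ± 0.23, adjusted p = 0.344). Another MYB gene with separate groups was VIT_207s0005g01950, with FPKM 9.55, 7.87 and 8.41 in LM-V and 3.12, 2.17 and 4.92 in C (log2 1.17, adjusted p = 0.139). The neighbour of MYBA1 by identifier, the MYB gene VIT_202s0033g00390, had FPKM 126, 132 and 126 in LM-V and 103, 104 and 94.3 in C (log2 0.35, adjusted p = 0.602). The glucosyltransferase gene that MYBA1 is known to control, UFGT VIT_216s0039g02230, did not share this difference: its FPKM was 58.6, 61.1 and 45.6 in LM-V and 69.6, 59.4 and 51 in C, with overlapping groups (log2 -0.12). Over the 5 tested UFGT genes, 4 had a difference above 0 (80%, against 46.1% of all genes), with a median of 0.35. Chalcone synthase (4 tested genes, median log2 difference -0.07), chalcone isomerase (2 genes, -0.17), flavonoid 3'-hydroxylase (6 genes, -0.13), flavonoid 3',5'-hydroxylase (11 genes, 0.01), dihydroflavonol reductase (5 genes, 0.11) and leucoanthocyanidin dioxygenase (3 genes, -0.19) had 0 genes past an unadjusted p of 0.05. Flavanone 3-hydroxylase genes F3H1 (VIT_204s0023g03370) and F3H2 (VIT_218s0001g14310) differed by -0.05 and 0.10.

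The entry enzymes of the pathway varied mainly between replicates. PAL15 (VIT_216s0039g01100) had FPKM 45.6, 19.8 and 18.2 in LM-V, against 23.6, 17.4 and 15.2 in C, so that LM-V replicate A alone stood above every C library (log2 0.45 ± 0.44, adjusted p = 0.956). The adjacent PAL genes VIT_216s0039g01120 and VIT_216s0039g01130, which may share reads, so that their single levels are uncertain, were highest in the same library. The 15 tested PAL genes summed to FPKM 191.5, 103.0 and 87.2 in LM-V and to 130.4, 94.0 and 86.4 in C, with a median log2 difference of 0.23, and 0 of them lay above or below C without overlap. PAL1 (VIT_206s0004g02620), PAL2 (VIT_208s0040g01710) and PAL7 (VIT_213s0019g04460) differed by -0.10, -0.16 and 0.07. The 4-coumarate-CoA ligase gene VIT_216s0050g00390 was steadier, with FPKM 87.3, 92.5 and 81.9 in LM-V and 80.2, 58.1 and 64.1 in C (log2 0.38 ± 0.10, adjusted p = 0.207). All 6 tested 4-coumarate-CoA ligase genes had a difference above 0 (median 0.32), and 2 of them lay above C without overlap (33.3%). The 3 cinnamate 4-hydroxylase genes also had differences above 0 (median 0.12), with 0 of them without overlap. Of 13 tested cinnamyl-alcohol dehydrogenase genes, 8 had a difference above 0 (61.5%, median 0.20) and 1 lay above C without overlap (7.69%). An unadjusted p under 0.05 was reached by 1 of the 13, which was higher in LM-V (7.69%, against 3.3% of all genes). Of the 43 tested genes with a stilbene synthase annotation, 31 had a difference above 0 (72.1%, median 0.21) and 2 lay above C without overlap (4.65%). Over all genes, 46.1% had a difference above 0 and 5.57% lay above C without overlap.

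**Figure D3:**
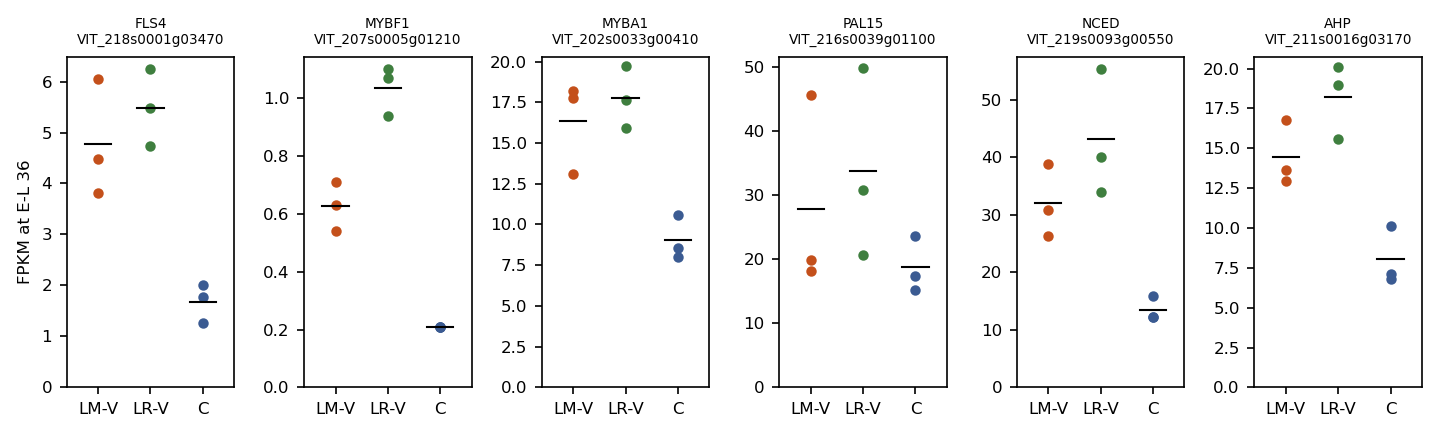
FPKM at E-L 36 of 6 genes of the flavonol, anthocyanin, phenylpropanoid, abscisic acid and cytokinin pathways in LM-V, LR-V and C, with 1 point per library and a bar at the mean of 3. For FLS4, MYBF1, MYBA1, NCED and AHP all LM-V points lie above all C points, and for PAL15 LM-V replicate A alone does (45.6). MYBF1 was too low to be tested, with all LM-V and C values near the floor, under FPKM 1.

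No gene of the hormone lists, which hold neither VIT_213s0019g01180 nor VIT_214s0006g02950, passed the adjusted test. In abscisic acid signalling the protein phosphatase 2C gene VIT_211s0016g03180, a repressor of the pathway by its class, had FPKM 28.8, 28.7 and 26.5 in LM-V and 20.7, 16.5 and 18.5 in C (log2 0.58 ± 0.14, adjusted p = 0.144), and the response element binding factor gene VIT_218s0072g00470 had FPKM 17.3, 19.1 and 17.02 in LM-V and 15.4, 12.6 and 13.04 in C (log2 0.36, adjusted p = 0.349). Both sets of groups were separate, but neither gene passed. Of 56 tested abscisic acid genes, 5 lay above (8.93%) and 4 below C without overlap (7.14%), against 5.57% and 5.94% of all genes, with a median of -0.00.

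Cytokinin genes gave 0 calls as well. The histidine phosphotransfer gene AHP (VIT_211s0016g03170), which relays the cytokinin signal from receptor to nucleus, had FPKM 12.9, 16.8 and 13.7 in LM-V, against 6.82, 10.1 and 7.14 in C (log2 0.79 ± 0.18, adjusted p = 0.141). The ARR9-like response regulator gene VIT_207s0005g04340, of a class that cytokinin induces, had FPKM 31.8, 31.1 and 26.9 in LM-V and 20.6, 18.01 and 19.3 in C (log2 0.61 ± 0.16, adjusted p = 0.262). In the list of 62 tested cytokinin genes, 8 lay above C without overlap (12.9%, against 5.57% of all genes) and 2 below (3.23%, against 5.94%). An unadjusted p under 0.05 was reached by 6, all higher in LM-V (9.68%, against 3.3% of all genes), and the median was 0.02. A pair of cytokinin N-glucosyltransferase genes, VIT_206s0004g05780 and VIT_213s0019g03120, differed by 0.72 and 0.57 at low levels.

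Auxin, gibberellin, ethylene and jasmonate genes showed separate groups in single members. The auxin-responsive IAA gene VIT_205s0020g04670 had FPKM 52.4, 37.6 and 51.6 in LM-V and 62.6, 88.01 and 99.05 in C (log2 -0.79 ± 0.25, adjusted p = 0.399), and an auxin efflux carrier gene, VIT_201s0011g04860, had FPKM 14.6, 13.7 and 15.99 in LM-V and 10.2, 10.8 and 9.91 in C (log2 0.48). Over 97 tested auxin genes 7 lay above and 7 below C without overlap (7.22% each), near the 5.57% and 5.94% of all genes. Genes of DELLA proteins, which repress gibberellin responses, split: VIT_212s0057g00560 had FPKM 13.3, 10.97 and 14.4 in LM-V and 16.1, 20.3 and 20.2 in C (log2 -0.51), whereas VIT_219s0090g01740 had FPKM 109, 101 and 88.3 in LM-V and 86.6, 81.1 and 64.6 in C (log2 0.36). None of these 4 genes passed the adjusted test (adjusted p 0.242 to 0.413). Against 5.57% of all genes above and 5.94% below C without overlap, the shares were 14.6% above and 4.88% below in 41 ethylene genes, 13.7% and 1.96% in 51 jasmonate genes and 12.9% and 6.45% in 62 gibberellin genes. Their list medians were 0.09, 0.04 and 0.02. In the jasmonate list the JAZ repressor gene VIT_209s0002g00890 had FPKM 50.7, 48.7 and 43.3 in LM-V and 36.03, 32.4 and 30.9 in C (log2 0.51, adjusted p = 0.759).

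Genes of light capture and heat stress had list medians above 0, with no member past the adjusted test. Of 64 tested photosystem and chlorophyll a-b binding genes, 48 had a difference above 0 (75%, against 46.1% of all genes), 9 lay above C without overlap (14.1%, against 5.57%) and 0 below (against 5.94%), and the median was 0.17, against -0.01 over all genes. The light-harvesting gene VIT_212s0028g00320 had FPKM 29.9, 18.9 and 16.1 in LM-V and 14.8, 8.36 and 11.2 in C (log2 0.85 ± 0.20, adjusted p = 0.141), and the photosystem II 22-kDa gene VIT_218s0001g02740, which dissipates excess light, had FPKM 53, 39.6 and 32 in LM-V and 29.6, 23.7 and 31.6 in C (log2 0.52, adjusted p = 0.442). The wider green tissue markers (65 genes) summed to FPKM 832 to 972 in LM-V and 647 to 802 in C. More green cells and more of these transcripts per cell cannot be told apart in bulk berries.

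Heat shock proteins and heat stress factors gave a similar picture: 65 of 83 tested genes (78.3%) had a difference above 0, 11 lay above C without overlap (13.3%) and 1 below (1.2%), against 46.1% of all genes above 0, 5.57% above and 5.94% below without overlap. The list median was 0.20. An Hsp90 gene (molecular chaperone HtpG, VIT_202s0025g00280) had FPKM 39.7, 34.4 and 34.01 in LM-V, against 16.6, 8.69 and 21.3 in C (log2 1.24 ± 0.40, adjusted p = 0.414). The Hsp70 gene VIT_208s0007g00130 had FPKM 50.6, 44.6 and 38.3 in LM-V and 26.4, 33.5 and 31.1 in C (log2 0.54, adjusted p = 0.251). The rebuilt fold change rule picked 3 of the 83 genes as higher and 2 as lower, against 48 and 33 over all 19761 genes. The summed FPKM of the 83 genes overlapped between groups, at 5141, 4601 and 3905 in LM-V and 4246, 3728 and 4122 in C.

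The early light-induced protein gene VIT_205s0020g04110, a photoprotective protein of the thylakoid, had FPKM 470.3, 362 and 339 in LM-V, against 262, 216 and 337 in C (log2 0.53 ± 0.14, adjusted p = 0.26), and C replicate C was level with the lowest LM-V library. Over 25 light signalling genes the median was 0.03. Of 17 clock genes, 3 had an unadjusted p under 0.05, all higher in LM-V (17.6%, against 3.3% of all genes). In this list 2 genes lay above (11.8%) and 1 below C without overlap (5.88%), against 5.57% and 5.94% of all genes, and the median was 0.05. Among the 3 was GIGANTEA (VIT_218s0157g00020) with FPKM 29.9, 23.8 and 22.9 in LM-V and 21.2, 19.7 and 19.9 in C (log2 0.31, adjusted p = 0.54). Glutathione S-transferase genes, which detoxify and in grape skin include anthocyanin carriers, had 48 of 68 tested members above 0 (70.6%, against 46.1% of all genes), 8 above C without overlap (11.8%, against 5.57%) and 0 below, with a median of 0.13. VIT_201s0026g01340, an abundant member, had FPKM 119.7, 84.7 and 71.5 in LM-V and 58.9, 57.9 and 70.6 in C (log2 0.52, adjusted p = 0.521). Medians of the photosystem, heat shock and glutathione S-transferase lists were 0.19, 0.22 and 0.14 after median-of-ratios scaling. No member of these 3 lists passed the adjusted test. The unadjusted p was under 0.05 in 5, 8 and 5 members that were higher (7.81%, 9.64% and 7.35%, against 3.3% of all genes). It was under 0.05 in 0 members that were lower, against 3.42% of all genes.

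**Figure D4:**
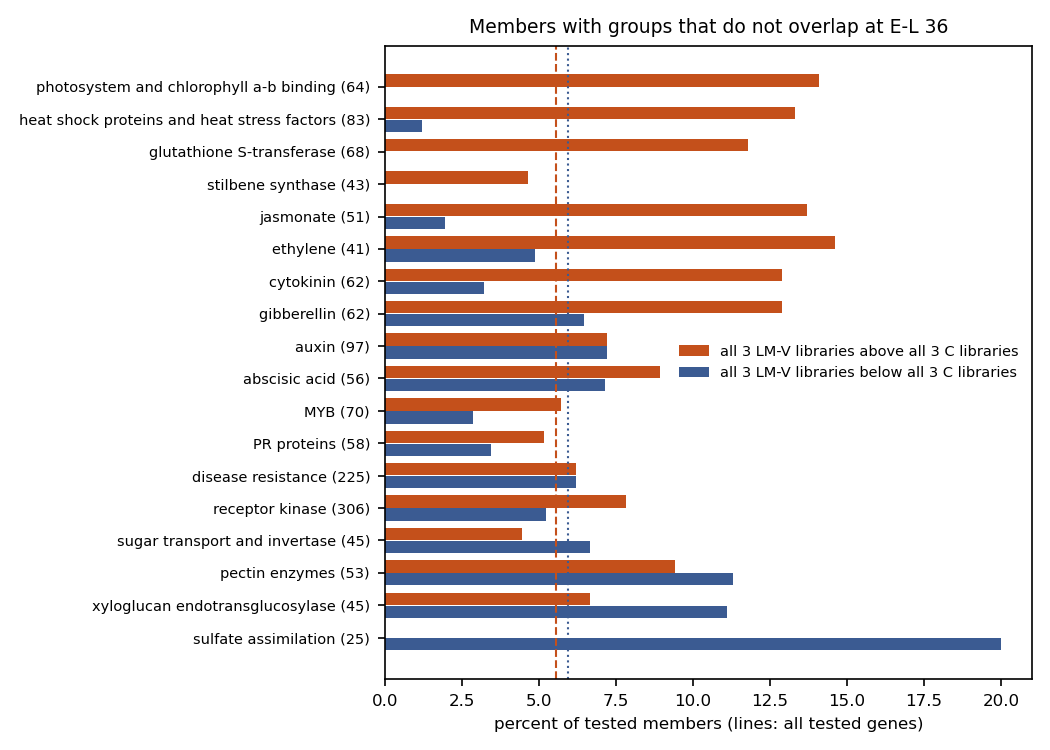
Percent of the tested members of 18 gene lists in which all 3 LM-V libraries lay above (orange) or below (blue) all 3 C libraries, with the number of tested members in brackets. The dashed and dotted lines mark the same shares over all 19761 genes (5.57% above, 5.94% below), and the photosystem, heat shock and glutathione S-transferase lists exceed the first line with bars of 0 to 1.2% on the other side.

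In the lists of softening, sugar and water transport genes 0 members passed the adjusted test. The 13 tested expansin genes had 0 members past an unadjusted p of 0.05 and a median of -0.08, and the 24 aquaporin genes had 0 and a median of -0.02. Among 53 pectin enzyme genes, 5 lay above (9.43%) and 6 below C without overlap (11.3%), against 5.57% and 5.94% of all genes. Of 45 sugar transporter and invertase genes, 4 had an unadjusted p under 0.05 and were higher in LM-V (8.89%, against 3.3% of all genes) and 0 were lower, while 2 lay above and 3 below C without overlap and the median was -0.00. Sucrose synthase VIT_211s0016g00470, which cleaves sucrose in the fruit, had FPKM 146, 152 and 154 in LM-V and 135, 114 and 125 in C (log2 0.27, adjusted p = 0.666). The pyruvate decarboxylase gene VIT_208s0217g00100, of ethanol fermentation, had FPKM 105, 121 and 117 in LM-V and 90.8, 88.5 and 86 in C, a narrow but separate difference (log2 0.37 ± 0.09, adjusted p = 0.145). In the disease resistance list (225 genes) 6.22% of members lay above and 6.22% below C without overlap, and among 306 receptor kinases 7.84% and 5.23% did, close to the shares over all genes.

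How leaf moving compared with leaf removal was asked directly, since the comparisons of each treatment with control share the 3 C libraries. LM-V and LR-V differed in 7 genes, all lower in LM-V (0.0354% of genes tested), and 0 genes were higher in LM-V by limma, with 760 higher and 1600 lower at an unadjusted p under 0.05. After median-of-ratios scaling the unadjusted split was 1258 higher and 1267 lower, with 1 gene called higher and 10 lower. This scaling brings the median difference close to 0 by construction (-0.043 before, -0.0045 after), so that an even split follows from it. The source of the lean was not tested. The gibberellin 2-beta-dioxygenase 8-like gene VIT_219s0177g00030, of an enzyme class that inactivates gibberellin, had FPKM 0.47, 0.92 and 0.51 in LM-V berries, 4.52, 2.80 and 2.55 in LR-V berries and 0.07, 0.07 and 0.14 in C berries. It was lower in LM-V than in LR-V by a log2 difference of -1.38 ± 0.19 (adjusted p = 0.00684), and its LM-V values all lay above its C values. The extended synaptotagmin-2 gene VIT_218s0001g14630, of a protein that tethers the endoplasmic reticulum to the plasma membrane, had FPKM 36.95, 40.7 and 36.3 in LM-V, 52.5, 68.6 and 52.2 in LR-V and 30.9, 30.7 and 28.4 in C (LM-V minus LR-V log2 -0.58 ± 0.09, adjusted p = 0.0207). VIT_206s0004g06170, annotated to the chloroplast thylakoid and envelope, had FPKM 4.86, 5.39 and 4.06 in LM-V, 10.5, 9.72 and 8.47 in LR-V and 5.63, 4.70 and 6.25 in C (log2 -0.87, adjusted p = 0.0317). In this gene LM-V overlapped C and lay below LR-V. The other 4 were a carboxypeptidase gene of cathepsin A type (VIT_208s0040g01130, log2 -1.91), an FtsH-like gene (VIT_214s0066g02070, -1.25), VIT_218s0001g10640 (-1.53) and the uncharacterised VIT_211s0016g04510 (-1.63). These 4 had a mean FPKM under 5 over the 27 libraries, so that their differences rest on low levels. A gene could enter the test through any 3 of the 27 libraries, also when it was near the floor in LM-V and C. The count depended on single libraries, being 157 without LM-V replicate B, 64 without LR-V replicate C, 0 without LM-V replicate C or LR-V replicate A, and 2 without LR-V replicate B. With the seed transcript level of each library (3.84 in LR-V replicate A) as a covariate, 0 genes were called between LM-V and LR-V and 15 between LM-V and C.

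For the genes called between LM-V and C, LM-V values mostly lay between those of LR-V and C or beside those of LR-V. The 12 called higher had a mean log2(FPKM + 1) of 5.14, 5.48 and 4.82 in LM-V, 5.94, 5.86 and 5.76 in LR-V and 3.97, 3.63 and 3.81 in C. The summed FPKM of the 12 hydroxylase-match genes was 467, 790 and 392 in LM-V, 912, 869 and 911 in LR-V and 216, 153 and 203 in C. LM-V lay below LR-V in every library in both measures, while none of these genes differed between LM-V and LR-V in the adjusted test (adjusted p from 0.213 for the hydroxylase matches and from 0.0589, in the MADS-box gene VIT_213s0158g00100, for the 12 called). Adenylyl-sulfate reductase VIT_210s0116g01650 had FPKM 18.6, 11.8 and 9.02 in LR-V and VIT_216s0098g00600 had 10.3, 8.01 and 8.28, which overlapped their LM-V values. The genes were chosen by their difference from C, so that their order against C is a description.

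The genes called at E-L 36 were not called in the same direction at the later stages. At E-L 37, 73 genes were called higher in LM-V than in C (0.369%) and 40 lower (0.202%), and at E-L 38, 909 were higher (4.6%) and 968 lower (4.9%), from libraries not used at E-L 36. Of the 12 genes called higher at E-L 36, 0 were called at E-L 37, where their median log2 difference was 0.02, and at E-L 38 0 were called higher and 7 were called lower (58.3%), with a median of -1.59. The 2 genes called lower at E-L 36 were called in neither direction at either later stage. Read from the other side, 18 of the 73 genes called higher at E-L 37 (24.7%) had LM-V above C without overlap at E-L 36, against 5.57% of all genes, and 1 had LM-V below. The 40 genes called lower at E-L 37 had shares at E-L 36 of 7.5% above and 10% below. For the 909 genes called higher at E-L 38 the shares at E-L 36 were 7.37% above and 7.26% below. Of the 968 called lower at E-L 38, 116 lay above C without overlap at E-L 36 (12%) and 77 below (7.95%), against 5.57% and 5.94% of all genes.

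The reversal at harvest was clearest in the hydroxylase-match genes. Their summed FPKM at E-L 38 was 44.0, 22.5 and 21.9 in LM-V, against 543, 524 and 265 in C, and 11 of the 12 were called lower. At E-L 37 it was 205, 239 and 182 in LM-V and 263, 178 and 183 in C, with overlapping groups. The C level was therefore highest at harvest, whereas the LM-V level was highest at E-L 36. VIT_208s0007g04180 followed the same course, with FPKM 3.81, 1.70 and 2.07 in LM-V and 78.7, 80.2 and 45.1 in C at E-L 38 (log2 -4.29 ± 0.23, adjusted p = 1.71e-10) and means of 20.7 ± 3.56 in LM-V and 21.2 ± 4.62 in C at E-L 37 (SD, n = 3 each). The cysteamine dioxygenase gene VIT_214s0108g00090 had FPKM 6.87, 6.44 and 5.34 in LM-V and 38.5, 39.2 and 21.4 in C at E-L 38 (log2 -2.19 ± 0.23, adjusted p = 2.53e-06). Adenylyl-sulfate reductase VIT_210s0116g01650, lower in LM-V at E-L 36, had FPKM 22.7, 20.1 and 29.1 in LM-V and 14.3, 12.6 and 14.2 in C at E-L 38, without overlap but short of the threshold (log2 0.75 ± 0.24, adjusted p = 0.0557).

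**Figure D5:**
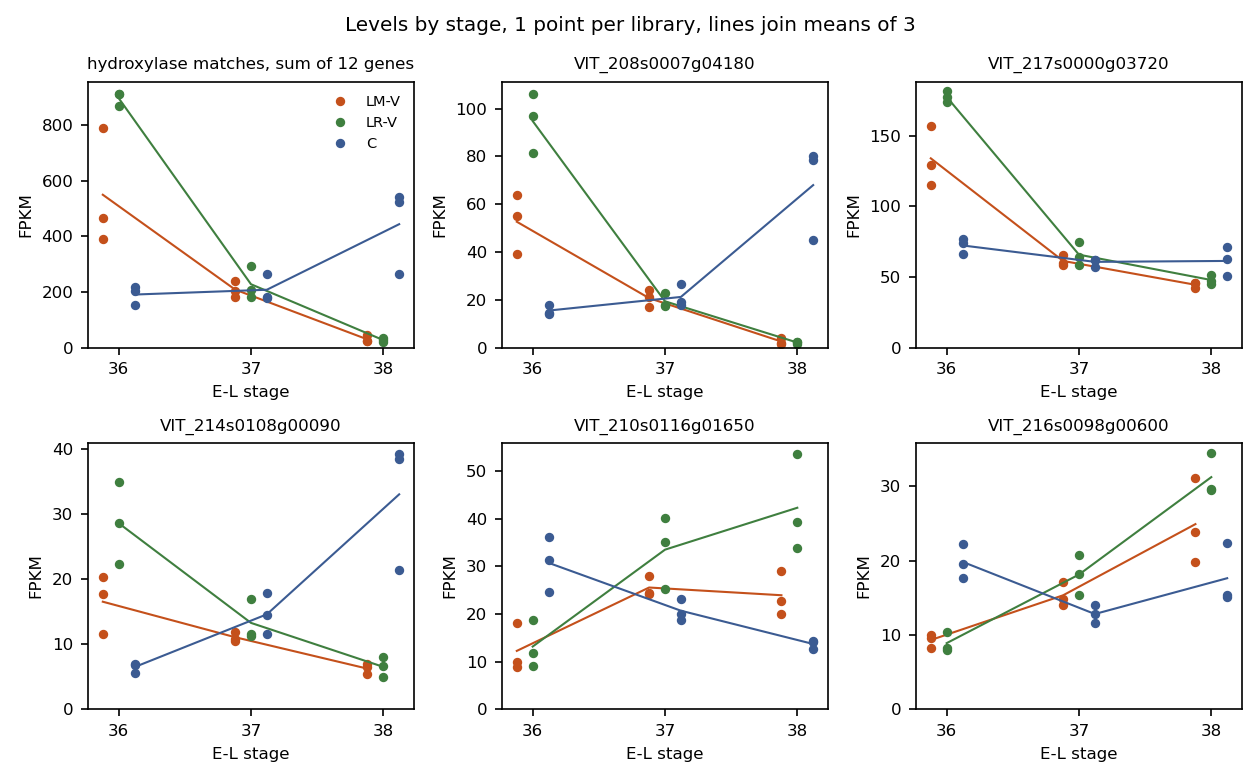
FPKM by stage, E-L 36 to E-L 38, in LM-V, LR-V and C for the sum of the 12 hydroxylase-match genes and for 5 of the 14 genes called at E-L 36, with 1 point per library and lines joining means of 3. In the sum, LM-V lies above C at E-L 36 (392 to 790 against 153 to 216) and below it at E-L 38 (21.9 to 44.0 against 265 to 543), and VIT_210s0116g01650 runs the opposite way.

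The difference between stages was tested as the LM-V effect at E-L 36 minus that at a later stage, in which the 2 effects share no library. Against E-L 38, 306 genes had a higher effect at E-L 36 (1.55% of those tested) and 306 a lower one (1.55%), 406 in all without C E-L 38 replicate B. Of the 14 genes called at E-L 36, 13 were among the 612, dnaJ 11 (VIT_219s0015g01370) being the exception (difference 0.75 ± 0.23, adjusted p = 0.0807), although these genes were chosen by values that enter the difference. All 12 hydroxylase-match genes were among the 306 with the higher effect, with differences of 2.09 to 6.12. They too were brought together after their E-L 36 values were seen, and these values enter the difference, so that this is a description. Against E-L 37, 4 genes had a higher effect at E-L 36 (0.0202%) and 4 a lower one (0.0202%). VIT_217s0000g03720 was among the first, at 0.86 ± 0.16 (adjusted p = 0.0445), with mean FPKM 61.3 ± 3.65 in LM-V and 60.6 ± 2.85 in C at E-L 37, and so was a beta-amylase gene (VIT_205s0020g01910, 0.61), an enzyme of starch breakdown. Among those with a lower effect at E-L 36 were VIT_216s0098g00600 (-1.25) and the calcium-binding gene VIT_205s0102g00450 (-1.45), which had FPKM 103, 92.7 and 92.1 in LM-V and 88.9, 99.4 and 94.1 in C at E-L 36, while LM-V had 34.95, 52.4 and 32.3 and C 13.4, 12.9 and 13.7 at E-L 37. The beta-amylase and calcium-binding genes were chosen after their values were seen. The count against E-L 37 depended on single libraries: it was 0 without LM-V E-L 37 replicate B, C E-L 36 replicate B or C, or C E-L 37 replicate A or B, 1 or 2 without LM-V E-L 36 replicate B or C, and 18, 17 and 15 without LM-V E-L 37 replicate C, C E-L 36 replicate A and C E-L 37 replicate C. After median-of-ratios scaling it was 0, with 830 higher and 813 lower at an unadjusted p under 0.05, against 1146 higher and 526 lower on the deposited values.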

How the data were processed

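RNA of deseeded berries was sequenced in 27 libraries, 3 replicates (A to C) of each of 9 groups: LM-V, LR-V and C, at the stages E-L 36, 37 and 38. The authors aligned 50-bp single reads to grapevine genome V2 with Bowtie (Bowtie2 2.2.5 in the submitters' processing notes), allowing up to 2 mismatches, and deposited FPKM per gene. The sources used here do not state how reads with several alignments were counted, and without counts absolute depth is unknown.

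Of 28940 genes, 19761 reached FPKM 1 in 3 or more libraries. Their log2(FPKM + 1) values entered a model of 9 group means in limma 3.58.1 (statmod 1.5.0, R 4.3.3), whose empirical Bayes step was robust and followed mean intensity. Fold changes on this scale understate those of low genes. Benjamini-Hochberg adjustment ran over all tested genes with a threshold of 0.05. A pair of groups of 3 cannot give an exact permutation p below 0.1. Genes could be named if called between LM-V and C or between LM-V and LR-V at E-L 36, if among the 10 highest or 10 lowest differences with separate groups, if the study names them, or if among the 4 smallest p values of a gene list. Lists follow KEGG orthology and annotation words, and those of DnaJ, sulfate assimilation and hydroxylase-match genes were added after values were seen. The comparison, genes and lists were chosen with earlier results of these data known. The fold change rule was rebuilt from the description of NOISeq (fold change 2, probability 0.8, 0.5 in place of 0). Alternatives were a pseudocount of 0.1, no filter, a mean FPKM of 5 as the filter, median-of-ratios scaling, no trend, a seed transcript covariate, a replicate block, fits of fewer libraries and single libraries left out.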

Additional observations from a re-analysis of the deposited data

Results flagged for a closer look

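For 13 of the 14 genes called between LM-V and C at E-L 36, the LM-V effect at E-L 36 differed from that at E-L 38 in the limma test of the difference, although the genes were chosen by values that enter it. On the log2 scale the effect at E-L 36 minus that at E-L 38 was 5.97 for VIT_208s0007g04180, 5.76 for VIT_212s0057g00170, 5.31 for VIT_214s0006g02950 and 5.09 for VIT_212s0057g00100. It was 3.6 for VIT_211s0016g00690, 3.39 for the cysteamine dioxygenase gene VIT_214s0108g00090 and 3.1 for VIT_218s0001g14440. In VIT_218s0001g14440 the mean FPKM at E-L 38 was 0.90 ± 0.23 in LM-V and 2.76 ± 0.49 in C (SD, n = 3 each). Smaller differences were found for VIT_217s0000g03720 (1.31), the MADS-box gene VIT_213s0158g00100 (0.97), VIT_213s0019g01180 (0.84) and the MLO gene VIT_205s0094g01570 (0.78). Both genes that were lower in LM-V at E-L 36 differed in the other direction, by -2.06 for adenylyl-sulfate reductase VIT_210s0116g01650 and by -1.49 for VIT_216s0098g00600. Adjusted p values of these differences ran from 2.37e-10 for VIT_208s0007g04180 to 0.0182 for VIT_213s0019g01180.

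Against E-L 37 the difference passed for VIT_217s0000g03720 (0.86) and VIT_216s0098g00600 (-1.25), both with an adjusted p of 0.0445.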

How the results depend on the processing

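The count of 14 genes between LM-V and C stayed within 1.5 times (12 to 21) under a pseudocount of 0.1, both filters, median-of-ratios scaling, limma without trend, the seed covariate and the replicate block, and moved to 0 in the fits of 6 or 9 libraries and to 81 under the rebuilt fold change rule, 10 of which are among the 14. Leaving out single libraries gave 3 to 29. Over 17 alternatives single genes of the 14 were called in 7 (VIT_214s0108g00090) to 14 (VIT_208s0007g04180 and VIT_212s0057g00170). All 14 genes were called after scaling and 12 with a pseudocount of 0.1. NCED VIT_219s0093g00550 passed with the stricter filter (adjusted p = 0.0297, range over its alternatives 0.0297 to 0.282). VIT_216s0050g00390 passed without C replicate A, and VIT_209s0002g05070, VIT_212s0028g00320 and VIT_212s0057g00120 passed without LM-V replicate C. VIT_219s0014g03750 passed with a pseudocount of 0.1 and with the replicate block. The 7 genes between LM-V and LR-V became 0 with a pseudocount of 0.1, 20 with no filter, 1 with the stricter filter, 11 after scaling, 12 with the replicate block, 0 with the seed covariate, 0 in the 6 libraries alone and 0 to 157 without single libraries. The 8 genes of E-L 36 minus E-L 37 became 0 with a pseudocount of 0.1, with no filter, after scaling and without trend, 21 with the stricter filter, 2 with the replicate block, 18 with the seed covariate and 0 to 18 without single libraries. The 612 genes of E-L 36 minus E-L 38 ran from 447 to 650 under these settings and from 406, without C E-L 38 replicate B, to 631 without single libraries. The cause of these changes was not tested.

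Replicate letters did not pair the libraries: correlations of deviations from the group means between same-lettered LM-V and C libraries at E-L 36 were -0.0906, -0.0908 and 0.0262, against -0.129 to 0.201 for other pairs. With the replicate block the count between LM-V and C was 21, and 0 in the 6 libraries alone. Among 72 named genes, 908 values under the alternatives kept direction and side of the threshold, 59 lost the threshold, 7 gained it and 20 changed sign or came to 0, each of the last without 1 library except VIT_213s0067g01020 with a pseudocount of 0.1 (-0.12). Without single libraries the LM-V minus C log2 difference ran from -0.22 to 0.15 for VIT_204s0023g03370, -0.0256 to 0.0674 for VIT_205s0102g00450, -0.32 to 0.0939 for VIT_206s0004g02620, -0.42 to 0.26 for VIT_208s0040g01130, -0.57 to 0.20 for VIT_208s0040g01710, -0.58 to 0 for VIT_211s0016g04510, -0.0706 to 0.24 for VIT_213s0019g04460, -0.23 to 0.39 for VIT_213s0067g01020, -0.23 to 0.00744 for VIT_216s0039g02230 and 0 to 0.22 for VIT_218s0001g10640. Depth is not given, so that low genes have no counting interval.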

Other observations

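Some defense and stress genes outside the groups above had separate LM-V and C values at E-L 36 without passing the adjusted limma test. The chitinase genes VIT_215s0046g01610 and VIT_215s0046g01590, of a class that degrades fungal cell walls, had FPKM 5.34, 7.33 and 8.46 and 28.2, 43.2 and 41.8 in LM-V berries, against 4.07, 3.12 and 3.43 and 25.3, 19.03 and 24.04 in C berries (adjusted p = 0.597 and 0.74). Over 58 tested genes of pathogenesis-related proteins the median log2 difference was 0.02. Of these, 3 lay above (5.17%) and 2 below C without overlap (3.45%), no more than the 5.57% and 5.94% of all genes. A carbonic anhydrase gene, VIT_208s0007g04800, had FPKM 23.9, 23.8 and 21.5 in LM-V and 19.8, 11.1 and 10.04 in C (log2 0.77, adjusted p = 0.373). The disease resistance gene VIT_209s0002g05070, annotated as RPS2, a receptor of bacterial effectors in Arabidopsis, had FPKM 10.2, 9.11 and 6.88 in LM-V and 5.36, 5.09 and 5.54 in C (log2 0.60, adjusted p = 0.144). The groups of each of these 4 genes did not overlap.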
